A study of Homo sapiens with 14 samples.

Results

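The effects of 2 hairpins against ZBP1 were set against each other in the human multiple myeloma cell line H929. For each gene, the log2 difference between shRNA2 and its own scramble control was taken, and the log2 difference between shRNA1 and its own scramble control was subtracted from it. This value is called the difference of effects, and a positive one means that the gene stood higher, relative to its control, with shRNA2. The direct difference, shRNA2 minus shRNA1 with no control, was taken beside it. The members are the 8 H929 libraries of the 14 libraries in the study, with 2 each of anti-ZBP1 shRNA2, the scramble control for shRNA2, anti-ZBP1 shRNA1 and the scramble control for shRNA1. The direct difference equals the difference of effects plus the difference between the scramble groups, so these values share libraries and are not independent of one another. The scramble difference, the control for shRNA2 minus the control for shRNA1, is therefore given for many lists and genes where they part. For any other gene it is the direct difference less the difference of effects. A direct difference may thus hold a difference between the controls.

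The study measured poly(A) RNA in the myeloma lines MM1.S and H929 after lentiviral delivery of a scramble or an anti-ZBP1 hairpin, so every group, controls included, carried a virus. H929 is a plasma cell line with a translocation that places WHSC1 and FGFR3 under immunoglobulin heavy chain control. The time after transduction and the hairpin sequences were not used here. The labels do not say whether replicates came from separate cultures, so p-values here measure the spread between libraries, which may be technical.

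ZBP1 is a sensor of Z-form nucleic acids and is itself induced by interferon. Once engaged, it can recruit RIPK3 through RHIM domains, and RIPK3 phosphorylates MLKL, which opens the plasma membrane in necroptosis. ADAR, whose interferon-induced form carries a related Z-nucleic-acid-binding domain, edits double-stranded RNA and restrains ZBP1. A comparison of hairpins with different sequences against the same target asks which parts of a response they have in common.

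ZBP1 (ENSG00000124256, chr20:57603846-57620576, minus strand) was read first. Its normalised counts, reads divided by 1 size factor per library, were 1229.5 and 1109.6 with shRNA2, 3449 and 3729 with its scramble, 1659 and 1888 with shRNA1, and 4269 and 4513 with its scramble. Both hairpin groups lay below both scramble groups with no overlap, and the shRNA2 libraries lay below the shRNA1 libraries. The shRNA2 effect was -1.62 ± 0.09 (log2 ± SE; limma adjusted p = 4.2e-09) and the shRNA1 effect -1.31 ± 0.09 (adjusted p = 8.6e-09). Between the hairpins, the difference of effects was -0.31 ± 0.13 and did not pass (adjusted p = 0.07), although without shRNA1 replicate 1 it was -0.40 (adjusted p = 0.0201). The direct difference, -0.60 ± 0.09, passed (adjusted p = 3.2e-05), and so did the scramble difference of -0.29 (adjusted p = 0.026). In MM1.S, ZBP1 was at 15.4 and 18.0 CPM with shRNA2, 23.0 and 26.8 CPM with shRNA1, and 129 and 140.3 CPM with the scramble, with a direct difference of -0.56 (edgeR adjusted p = 0.022).

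The H929 libraries held 15926867 to 22254348 reads in genes. Mitochondrial transcripts took 8.72% to 8.80% of the reads with shRNA2, 6.84% to 7.12% with its scramble, 5.98% to 6.34% with shRNA1 and 6.63% to 7.22% with its scramble. All 10 plasma cell and myeloma markers were detected in every group, with summed normalised counts of 114720 to 119910 with shRNA2, 131250 to 140290 with its scramble, 104860 to 112680 with shRNA1 and 140580 to 143310 with its scramble. In bulk RNA, fewer cells of a state and less RNA per cell cannot be told apart.

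The hairpins differed widely. Of 18213 genes tested, 3634 (20.0%) had a higher and 3984 (21.9%) a lower difference of effects at a limma adjusted p under 0.05, and 1522 and 2050 of these were past 2-fold. The direct difference was higher for 5498 genes (30.2%) and lower for 5415 (29.7%). Counts within gene lists below are to be read against these shares over all genes. The shRNA2 effect was higher for 3274 genes (18.0%) and lower for 4551 (25.0%), with the higher count at 1861 without shRNA2 replicate 1 and at 1924 without shRNA2 replicate 2. The shRNA1 effect was higher for 4685 genes (25.7%) and lower for 5044 (27.7%). The scramble groups themselves differed, with 3061 genes higher (16.8%) and 2380 lower (13.1%) in the scramble for shRNA2. The higher count was 1897 without replicate 2 of the scramble for shRNA2 and 2003 without replicate 2 of the scramble for shRNA1, and the lower count was 1270 without the last of these.

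The shRNA2 and shRNA1 effects share no library. Both were lower for 2104 genes, which is 46.2% of the genes lower with shRNA2 and 41.7% of those lower with shRNA1. Both were higher for 1270 genes, 38.8% and 27.1% of the same kinds of list. Another 503 genes were higher with shRNA2 (15.4% of those) and lower with shRNA1 (9.97%). A further 950 were lower with shRNA2 (20.9%) and higher with shRNA1 (20.3%). Over all genes, 18.0% were higher and 25.0% lower with shRNA2, and 25.7% and 27.7% with shRNA1. The shares of genes moving the same way with both hairpins lay above these, and those of genes moving in opposite ways below. Across the 18213 genes, which are not independent replicates, Pearson's r between the effects was 0.281.

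**Figure D1:**
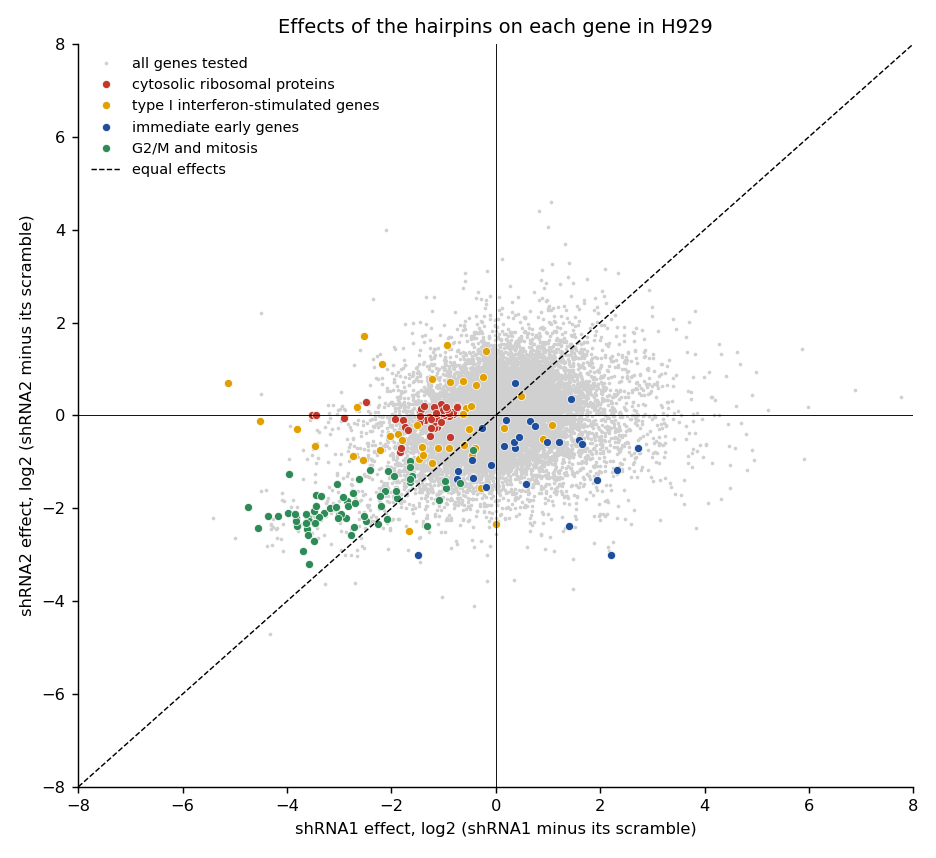
Each point is 1 gene in H929, with the shRNA2 effect on the y axis and the shRNA1 effect on the x axis, both in log2 against the hairpin's own scramble. The dashed line marks equal effects. Ribosomal protein genes, with a median of -0.03 for shRNA2 and -1.14 for shRNA1, sit above the line. Most immediate early genes, with a list median of -0.70 for shRNA2 and 0.45 for shRNA1, sit below it.

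Genes of the ribosome were the most uniform group. All 59 cytosolic ribosomal protein genes were higher with shRNA2 in the difference of effects, with a median of 1.10 log2 and a range of 0.43 to 3.52, against a median of 0.02 over all genes tested. All 59 were also higher in the direct difference (median 1.47). With shRNA2, 2 rose and 9 fell against the scramble (median -0.03). With shRNA1, all 59 fell (median -1.14). In the scramble difference, 52 were higher and 0 lower (median 0.35).

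RPS16 (ENSG00000105193, chr19:39433207-39435948, minus strand), a protein of the small subunit, led the group. Its normalised counts were 23006 and 22369 with shRNA2, 20850.1 and 24735 with its scramble, 1573 and 1562 with shRNA1, and 17903 and 18069.7 with its scramble. The shRNA1 libraries stood apart from the other 3 groups, which overlapped or lay close together. This gave a difference of effects of 3.52 ± 0.13 (limma adjusted p = 7.5e-11), and the level with shRNA2 was 14.5 times that with shRNA1. RPS3A (ENSG00000145425, chr4:151099573-151104652, plus strand), another small-subunit protein, had 12076 and 12002 with shRNA2, 12662 and 11341 with its scramble, 649 and 827 with shRNA1, and 7686 and 8279 with its scramble. It repeated the pattern, with a difference of effects of 3.45 ± 0.15 (adjusted p = 3.1e-10) and a direct fold of 16.4. RPS20, a protein of the head of the small subunit, had a difference of effects of 2.77 ± 0.13 (adjusted p = 5.9e-10).

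EIF3L (ENSG00000100129, chr22:37848868-37889407, plus strand), a subunit of the initiation factor that joins mRNA to the small subunit, behaved like RPS16 and RPS3A although it is no ribosomal protein. Its normalised counts were 3595 and 3720.0 with shRNA2, 3885 and 3973 with its scramble, 214 and 229 with shRNA1, and 2583 and 2686 with its scramble. All shRNA1 libraries were far below the other 6. The shRNA2 effect was -0.10 ± 0.08 (limma adjusted p = 0.34), the shRNA1 effect -3.57 ± 0.08 (adjusted p = 1.6e-13), and the difference of effects 3.46 ± 0.12 (adjusted p = 5.8e-11). Ribosomal protein genes have many processed pseudogenes, and exons of RPS3A, RPS20 and EIF3L overlap those of another annotated gene. The labels do not say whether strand was kept, so their levels are uncertain to that extent.

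Many ribosomal protein transcripts begin with a C followed by pyrimidines, the motif through which their translation follows growth signals, and the start sites of 4 members are printed to show it. RefSeq promoters of build GRCh38.p14 were matched for 46 of the 59 genes, and each line gives the last bases before the annotated start and the first after it, in coding direction, with the pyrimidine run in capitals. RPS16 lies at chr19:39435930-39435959, minus strand, RPS3A at chr4:151099618-151099647, plus strand, RPLP0 at chr12:120201092-120201121, minus strand and RPL35 at chr9:124861938-124861967, minus strand.
RPS16: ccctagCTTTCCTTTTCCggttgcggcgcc
RPS3A: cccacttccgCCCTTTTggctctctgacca
RPLP0: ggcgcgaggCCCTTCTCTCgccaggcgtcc
RPL35: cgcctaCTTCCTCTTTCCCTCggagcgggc
A run of at least 5 pyrimidines led by C and beginning within 5 bases of the start was found on the coding strand in 39 of the 46 (84.8%) and in 5749 of 27305 promoters in the table (21.1%). This describes the letters in the window and does not mark a site in use. RPLP0, a stalk protein, had a difference of effects of 1.69. RPLP0 and RPL35 were picked for display after their values were seen.

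Genes of oxidative phosphorylation were also mostly higher with shRNA2. Of 55 nuclear genes of the respiratory chain, 44 were higher and 0 lower in the difference of effects (median 0.70), and 51 higher and 0 lower in the direct difference (median 1.00). The shRNA2 effect was higher for 11 and lower for 6, and the shRNA1 effect was lower for 47 and higher for 0. In the scramble difference 33 were higher and 0 lower (median 0.32). NDUFA10, an accessory subunit of complex I, had 2481 and 2392 with shRNA2, 1455 and 1635 with its scramble, 706 and 705 with shRNA1, and 1334 and 1307 with its scramble. For it, the difference of effects was 1.56 ± 0.12 (limma adjusted p = 1.2e-07), with the shRNA1 libraries below all others. COX7A2 of complex IV (1.41), ATP5C1, the gamma subunit of ATP synthase (1.33), and UQCRFS1, the Rieske protein of complex III (1.34), also passed. Of the 13 protein-coding transcripts of the mitochondrial genome, 12 were higher in the difference of effects (median 0.52) and 13 in the direct difference, with MT-ND6, a complex I subunit, at 0.92 ± 0.13. The count of 12 was 6 without shRNA2 replicate 1 and 7 without shRNA2 replicate 2.

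Interferon-stimulated genes gave the 3 highest differences of effects, IFI44L, IFI44 and DDX60, among genes with a mean normalised count of at least 100 that passed with the same sign in both comparisons. Of 42 tested, 25 were higher and 4 lower in the difference of effects, with a median of 0.88. In the direct difference 9 were higher and 13 lower, against 30.2% and 29.7% of all genes, with a median of -0.01 that lay between -0.07 and 0.10 over the alternatives. In the scramble difference, 38 of the 42 were lower in the scramble for shRNA2 and 0 were higher (median -1.10). The shRNA2 effect was higher for 9 and lower for 19 (median -0.35), and the shRNA1 effect was higher for 2 and lower for 29 (median -1.16).

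IFI44L (ENSG00000137959, chr1:78619922-78646145, plus strand), an interferon-induced cytosolic protein, had 394 and 429 with shRNA2, 347 and 184 with its scramble, 24.8 and 21.2 with shRNA1, and 768 and 918 with its scramble. The groups did not overlap, with the shRNA1 libraries lowest and the scramble for shRNA1 highest. Its difference of effects was 5.83 ± 0.30 (limma adjusted p = 1.6e-09), from a shRNA2 effect of 0.70 (adjusted p = 0.016) and a shRNA1 effect of -5.14 (adjusted p = 4.2e-11). Its neighbour IFI44 (ENSG00000137965, chr1:78649796-78664078, plus strand) had 159.8 and 182 with shRNA2, 241 and 143 with its scramble, 27.3 and 39.6 with shRNA1, and 628 and 963 with its scramble. The shRNA2 libraries fell within the range of their scramble, and the difference of effects was 4.40 ± 0.34 (adjusted p = 9.5e-08).

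DDX60 (ENSG00000137628, chr4:168216293-168318807, minus strand), a helicase linked to RIG-I signalling, had 205 and 204 with shRNA2, 78.3 and 48.9 with its scramble, 15.7 and 29.5 with shRNA1, and 108 and 154 with its scramble. It rose with shRNA2 by 1.71 and fell with shRNA1, with an effect of -2.52, so that the difference of effects was 4.23 ± 0.40 (limma adjusted p = 6.2e-07). TRIM22, an antiviral ubiquitin ligase, and CASP1, the protease of the inflammasome, also moved in opposite directions. TRIM22 had 159.8 and 152 with shRNA2, 77.2 and 65.9 with its scramble, 41.3 and 78.3 with shRNA1, and 272 and 253 with its scramble, and its effects were 1.12 for shRNA2 (adjusted p = 0.001) and -2.19 for shRNA1 (adjusted p = 7.8e-07). CASP1 had 177 and 161 with shRNA2, 88.6 and 69.1 with its scramble, 24.0 and 50.6 with shRNA1, and 113 and 173 with its scramble, and its effects were 1.10 (adjusted p = 0.0055) and -1.97 (adjusted p = 2.3e-05).

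IFI27 (ENSG00000165949, chr14:94104836-94116698, plus strand), a mitochondrial interferon-induced protein, differed most between the controls of these 4 genes. Its normalised counts were 576 and 506 with shRNA2, 787 and 563 with its scramble, 371 and 256 with shRNA1, and 4077 and 4574 with its scramble. The scramble for shRNA1 stood far above the other 3 groups. Its values were 3.50 ± 0.23 for the difference of effects (limma adjusted p = 2e-08), 0.81 ± 0.16 for the direct difference (adjusted p = 0.00042) and -2.70 ± 0.16 for the scramble difference (adjusted p = 1.7e-07).

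The promoters of these 4 genes are printed because interferon acts through a short element with repeated GAAA, bound by the ISGF3 complex and by IRF proteins. Each line gives the 250 bases before the RefSeq start in GRCh38.p14, in coding direction, with matches to GAAA, any 2 bases and a second GAAA, on either strand, in capitals. IFI44L lies at chr1:78620198-78620447, plus strand with 2 matches, IFI44 at chr1:78649539-78649788, plus strand with 1, DDX60 at chr4:168318753-168319002, minus strand with 2 and IFI27 at chr14:94110486-94110735, plus strand with 2.
IFI44L: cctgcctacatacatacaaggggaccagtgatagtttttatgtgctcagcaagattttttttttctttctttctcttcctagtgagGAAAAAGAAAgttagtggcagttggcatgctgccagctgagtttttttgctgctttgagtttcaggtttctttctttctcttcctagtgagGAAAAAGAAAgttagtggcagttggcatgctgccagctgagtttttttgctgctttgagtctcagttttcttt
IFI44: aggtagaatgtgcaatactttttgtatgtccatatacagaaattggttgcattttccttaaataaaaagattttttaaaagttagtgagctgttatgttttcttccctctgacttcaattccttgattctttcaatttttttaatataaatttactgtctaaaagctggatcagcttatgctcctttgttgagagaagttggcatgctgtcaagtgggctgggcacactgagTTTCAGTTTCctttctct
DDX60: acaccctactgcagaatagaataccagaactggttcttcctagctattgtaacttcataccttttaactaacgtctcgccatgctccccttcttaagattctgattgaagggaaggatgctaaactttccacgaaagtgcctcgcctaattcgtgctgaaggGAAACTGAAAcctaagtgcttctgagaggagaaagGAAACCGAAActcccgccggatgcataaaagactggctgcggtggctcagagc
IFI27: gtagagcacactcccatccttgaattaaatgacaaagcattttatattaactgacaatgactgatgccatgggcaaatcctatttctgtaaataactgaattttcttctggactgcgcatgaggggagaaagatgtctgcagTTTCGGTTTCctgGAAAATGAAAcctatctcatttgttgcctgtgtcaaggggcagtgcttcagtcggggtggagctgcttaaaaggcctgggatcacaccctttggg
Among the 32 tested interferon genes with a sequence, 19 held the motif (59.4%), against 839 of 27305 promoters (3.07%). A match is a description of the sequence and does not show binding.

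**Figure D2:**
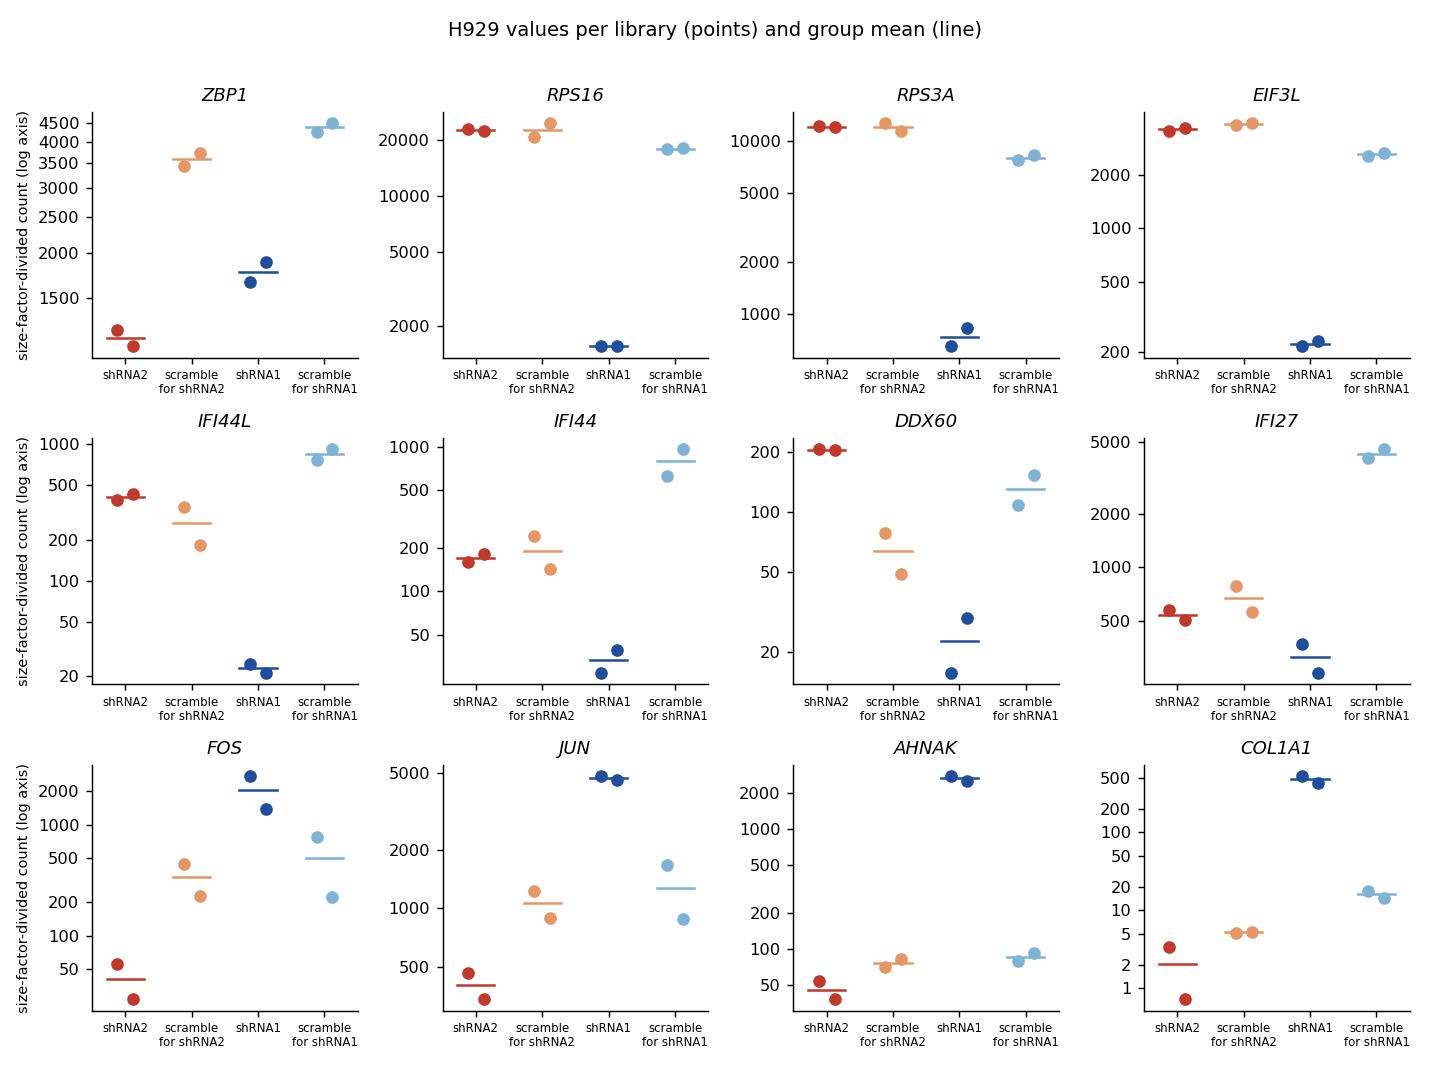
Normalised counts of 12 genes in the 8 H929 libraries on a log axis, grouped as shRNA2, scramble for shRNA2, shRNA1 and scramble for shRNA1; points are libraries and lines are group means. RPS16, RPS3A and EIF3L are low in shRNA1 alone of the 4 groups, IFI27 is high in the scramble for shRNA1, and AHNAK and COL1A1 are high in shRNA1.

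Immediate early genes, which are transcribed within minutes of growth factor signalling, ran the other way. Of 27 tested, 22 were lower and 0 higher in the difference of effects (median -1.07), and 23 lower and 0 higher in the direct difference (median -1.63), with 1 higher in each without shRNA1 replicate 1. With shRNA2, 20 fell and 1 rose, whereas with shRNA1, 17 rose and 4 fell. FOS (ENSG00000170345, chr14:75278774-75282230, plus strand), a subunit of the AP-1 transcription factor, had 55.5 and 26.7 with shRNA2, 441 and 229.8 with its scramble, 2754 and 1371 with shRNA1, and 782 and 223 with its scramble. The shRNA2 libraries were lowest, and each shRNA1 library was above every other library. Its difference of effects was -5.23 ± 0.65 (limma adjusted p = 9.7e-06), and the replicates of each group lay far apart.

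JUN, the partner of FOS in AP-1, had 466 and 339 with shRNA2, 1229.6 and 890.3 with its scramble, 4806 and 4551 with shRNA1, and 1668 and 881 with its scramble. Like FOS it was lowest with shRNA2 and highest with shRNA1, with a difference of effects of -3.34 ± 0.31 (limma adjusted p = 5.1e-07). ATF3, a stress-induced transcription factor, had a value of -2.28 ± 0.19 (adjusted p = 2.2e-07), and DUSP1, a phosphatase that inactivates MAP kinases, one of -2.11 ± 0.37 (adjusted p = 0.00026). Of 18 feedback genes of the ERK pathway, 11 were lower and 0 higher in the difference of effects (median -0.73), a count of 7 without replicate 1 of the scramble for shRNA2. These included the inhibitor SPRY4 (-1.41), the phosphatase DUSP7 (-0.99), the inhibitor SPRED1 (-1.52) and the AP-1 subunit FOSL1 (-2.05). In the direct difference 10 were lower and 1 higher. With shRNA2, 13 of the 18 fell and 2 rose, and with shRNA1, 7 fell and 5 rose. SPRY4 and DUSP7 fell with both hairpins. Some members, FOSL1 among them, are also in the immediate early list.

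The lowest differences of effects were taken among genes with a mean normalised count of at least 100 over the 8 libraries, a limit that all of them except FOS and SLC7A2 reached only through their shRNA1 libraries. COL1A1 (ENSG00000108821, chr17:50183289-50201632, minus strand), a chain of fibrillar collagen, had 3.36 and 0.721 with shRNA2, 5.15 and 5.32 with its scramble, 528 and 431 with shRNA1, and 17.5 and 14.5 with its scramble. The shRNA1 libraries were far above all others, and the difference of effects was -6.00 ± 0.57 (limma adjusted p = 7.1e-07). AHNAK (ENSG00000124942, chr11:62433542-62556235, minus strand), a very large scaffold protein, had 53.8 and 38.2 with shRNA2, 71.1 and 83.0 with its scramble, 2752 and 2495 with shRNA1, and 79.8 and 92.7 with its scramble. Only the shRNA1 libraries were above 100, and the difference of effects was -5.66 ± 0.24 (adjusted p = 3.2e-10). The summed normalised count of 4 epithelial and fibroblast markers was 28.8 to 29.4 with shRNA2, 24.5 to 35.0 with its scramble, 527 to 644 with shRNA1 and 55.5 to 72.4 with its scramble. Most of it came from COL1A1 with shRNA1 and from the keratin gene KRT8 in the other 3 groups. COL1A2 was at 0 in every library except shRNA1 replicate 1, where it was at 1.65. The part of other cells in these values was not tested.

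PHLDB2, a cortical microtubule adaptor, had 5.89 and 3.6 with shRNA2 and 375 and 385 with shRNA1, and its difference of effects was -5.92 ± 0.51. KIF1A, an axonal transport kinesin, had 10.1 and 5.04 with shRNA2 and 547 and 295 with shRNA1 and a value of -5.54 ± 0.62. CECR2, a chromatin remodelling subunit, had 10.9 and 4.32 with shRNA2 and 768 and 563 with shRNA1 and a value of -5.27 ± 0.52. In each of these the hairpin groups did not overlap, but the genes were chosen for passing in the direct difference, so this is no separate support. COBL, an actin nucleator, was at -5.00 ± 0.42, the receptor phosphatase PTPRD at -4.90 ± 0.40, and the cationic amino acid transporter SLC7A2 at -4.65 ± 0.24. SOD1P3, a processed pseudogene of SOD1 whose reads may belong to its parent, was at -4.87 ± 0.54. Among the high extreme beside the interferon and ribosomal genes were the histone H2A gene HIST3H2A (3.36 ± 0.26) and MB, which encodes myoglobin (3.22 ± 0.40). MB had 90.0 and 72.8 with shRNA2, 412 and 344 with its scramble, 9.09 and 5.52 with shRNA1, and 242 and 499 with its scramble, so it fell with both hairpins and further with shRNA1.

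Genes of cell division differed mainly in the direct comparison. All 66 genes of G2/M and mitosis fell with shRNA2 (median -1.99) and all 66 fell with shRNA1 (median -2.98). The direct difference was higher for 64 and lower for 0 (median 2.23), and the difference of effects was higher for 41 and lower for 4 (median 0.94). In the scramble difference, all 66 were higher (median 1.34). NEK2, a centrosomal kinase, had 329 and 388 with shRNA2, 879 and 839 with its scramble, 20.7 and 35.9 with shRNA1, and 355 and 545 with its scramble. This came to a difference of effects of 2.70 ± 0.31 and a direct difference of 3.66 ± 0.22. Each hairpin group lay below its own scramble, and shRNA1 lay lowest. UBE2C, which loads ubiquitin for the anaphase-promoting complex, had values of 2.19 and 3.67, CDC20, an activator of that complex, 1.86 and 3.43, and DLGAP5, a spindle assembly factor, 2.14 and 3.57.

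Among 55 genes of DNA replication and the G1/S transition, 55 fell with shRNA2 and 53 with shRNA1. The difference of effects was higher for 24 and lower for 10 (median 0.35), and the direct difference was higher for 50 and lower for 2 (median 1.72), with all 55 higher in the scramble difference (median 1.27). CDT1, which loads the replicative helicase, had 840.1 and 922 with shRNA2, 2503 and 2860.2 with its scramble, 64.5 and 54.3 with shRNA1, and 1399 and 1169.6 with its scramble. It was lowest in the shRNA1 libraries, with a difference of effects of 2.81 ± 0.17 (limma adjusted p = 7.4e-09). RRM2, a subunit of ribonucleotide reductase, was at 2.37 ± 0.22, while E2F8, a repressor of E2F targets, was at -1.95 ± 0.26. The kinetochore gene SKA3, the condensin gene NCAPH and the centriole kinase PLK4 passed in the direct difference (2.67, 2.46 and 2.45) but not in the difference of effects (0.71, 0.66 and 0.84). NCAPH passed at 0.97 without replicate 1 of the scramble for shRNA1 (limma adjusted p = 0.00525), at 0.71 without shRNA1 replicate 2 (adjusted p = 0.0448) and at 0.69 with TMM scaling (adjusted p = 0.0424), and PLK4 at 1.29 without shRNA1 replicate 2 (adjusted p = 0.00165).

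Ribosome biogenesis genes, unlike the ribosomal proteins themselves, fell with both hairpins, 40 of 45 with shRNA2 and 38 with shRNA1. In the difference of effects 8 were higher and 4 lower (median -0.02), with these small counts at 4 and 2 without either shRNA2 library, and at 4 and 7 without shRNA1 replicate 1. The direct difference was higher for 36 and lower for 0 (median 0.55) and the scramble difference higher for 39 and lower for 0 (median 0.54). Of 35 proteasome subunits, 9 were higher and 8 lower in the difference of effects, against 20.0% and 21.9% of all genes. In the direct difference 28 were higher and 2 lower, against 30.2% and 29.7%. The scramble difference was higher for 31 of these subunits and lower for 0. It was higher for 16 and lower for 0 of the 24 heat shock and chaperone genes below. The first pair of counts was 5 and 5 without shRNA2 replicate 1, and 5 and 4 without shRNA2 replicate 2. PSMB4, a beta subunit of the core, stood apart at 1.57 ± 0.12, with 8460.2 and 8386 with shRNA2, 9803 and 10849 with its scramble, 2070.3 and 2094 with shRNA1, and 7824 and 7310.0 with its scramble. Its shRNA1 libraries were below all others. Of 24 heat shock and cytosolic chaperone genes, 5 were higher and 3 lower in the difference of effects (7 lower without shRNA1 replicate 2), and 17 higher and 4 lower in the direct difference.

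**Figure D3:**
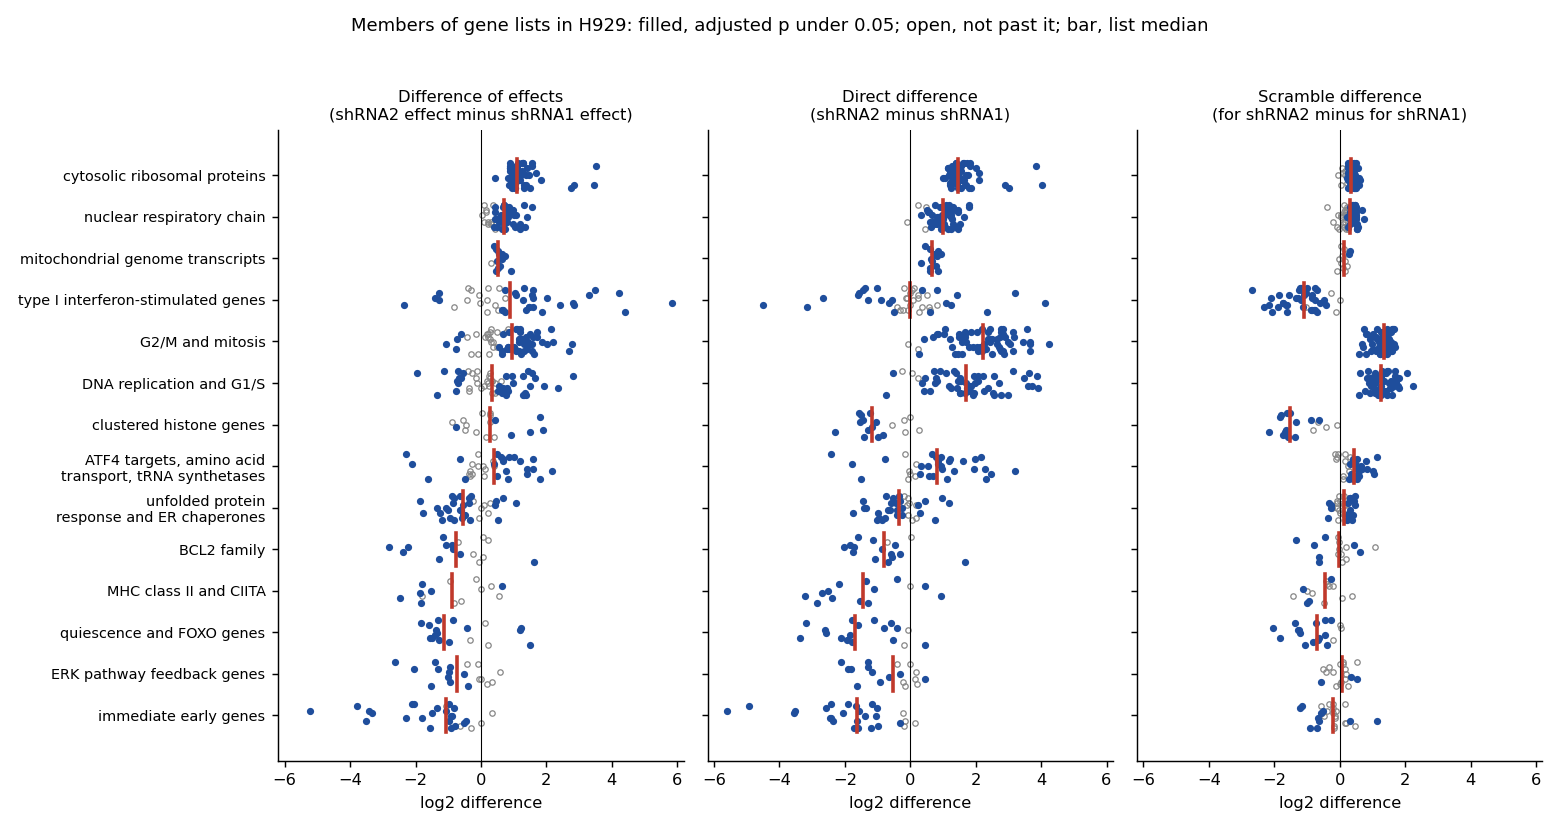
Each point is 1 gene of a list in H929, with its log2 difference on the x axis, shown for the difference of effects, the direct difference and the scramble difference; filled points have an adjusted p under 0.05 and bars are list medians. Ribosomal proteins lie right of 0 in the first 2 panels, interferon-stimulated genes have medians of 0.88, -0.01 and -1.10, and mitotic genes have medians of 0.94, 2.23 and 1.34.

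Histone genes showed scramble differences opposite in sign to those of mitosis. Of 17 clustered histone genes seen in poly(A) RNA, 13 were lower in the scramble for shRNA2 and 0 higher (median -1.51). The shRNA2 effect was higher for 12 and lower for 0, and the shRNA1 effect higher for 9 and lower for 2. In the difference of effects 5 were higher and 1 lower (median 0.27), and in the direct difference 12 were lower and 0 higher (median -1.18). HIST1H1C, a linker histone, had 3847 and 3515 with shRNA2, 1943 and 1891 with its scramble, 4616 and 2921 with shRNA1, and 5584 and 8200.4 with its scramble. It passed in the difference of effects at 1.82 ± 0.24 and stood at 0.00 in the direct difference. The core histone gene HIST1H2BD was at 1.91 ± 0.19.

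Other genes also parted between the comparisons. Their scramble difference is the direct value less the difference of effects. It was positive for CYP26A1, FIGNL1 and MAP1B and negative for the other genes of this paragraph. TNNT3, a troponin subunit of fast muscle, LGALS3BP, a secreted galectin-binding glycoprotein, and HIST1H2BD passed in the difference of effects (2.56, 2.01 and 1.91) but not in the direct difference (0.11, -0.09 and 0.26). Without shRNA1 replicate 1 the direct value of HIST1H2BD was 0.47 (limma adjusted p = 0.00548). On the low side, the retinoic acid hydroxylase CYP26A1 (-1.64), the repair ATPase FIGNL1 (-1.48) and the microtubule protein MAP1B (-1.45) passed in the difference of effects, with direct values of -0.46, -0.11 and -0.30. The direct value of CYP26A1 was -0.69 without shRNA2 replicate 1 (adjusted p = 0.0374) and -0.71 without shRNA1 replicate 2 (adjusted p = 0.0157). That of MAP1B was -0.30 and passed when any 1 scramble library was left out, with adjusted p from 0.0293 to 0.0496, and with only the compared groups in the fit (adjusted p = 0.0189). In the opposite case, the metallothionein MT2A (-4.08), the antiviral membrane protein IFITM1 (-3.16) and the immunoglobulin heavy chain gene IGHA2 (-2.83) passed in the direct difference, with differences of effects of 0.24, -0.83 and 0.31. IFITM1 passed at -1.39 without shRNA2 replicate 2 (adjusted p = 0.00418) and at -1.23 without replicate 2 of the scramble for shRNA2 (adjusted p = 0.0479).

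Genes of antigen presentation by MHC class II were higher with shRNA1. Of 14 tested, 4 rose and 0 fell with shRNA2, and 10 rose and 1 fell with shRNA1. The direct difference was lower for 11 and higher for 2 (median -1.46), and the scramble difference lower for 4 and higher for 0. In the difference of effects 5 were lower and 1 higher, with the lower count at 3 without shRNA2 replicate 1 or without shRNA1 replicate 2 and at 8 without shRNA1 replicate 1. CIITA, the master activator of these genes, had 114 and 119 with shRNA2, 68.0 and 103 with its scramble, 473 and 811 with shRNA1, and 97.3 and 64.7 with its scramble. Both shRNA1 libraries were above all others, and the difference of effects was -2.48 ± 0.35 (limma adjusted p = 3.7e-05). HLA-DPA1 and HLA-DRA, alpha chains of class II molecules, had values of -1.85 and -1.79. Of 17 class I and peptide-loading genes, 2 were higher (4 without replicate 1 of the scramble for shRNA1) and 5 lower in the difference of effects, and 1 higher and 12 lower in the direct difference.

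Of 29 plasma cell identity genes, 5 were higher and 14 lower in the difference of effects (median -0.28), against 20.0% and 21.9% of all genes. In the direct difference 9 were higher and 17 lower, against 30.2% and 29.7%. FGFR3, the receptor kinase on the translocated chromosome, had 16027 and 15675 with shRNA2, 7835 and 8878 with its scramble, 5565 and 4916 with shRNA1, and 18838 and 19463 with its scramble. It rose with shRNA2 and fell with shRNA1, with a difference of effects of 2.80 ± 0.13 (limma adjusted p = 5.9e-10). SLAMF7, a surface antigen targeted in myeloma, was at 2.23 ± 0.16 and the chemokine receptor CCR10 at 1.51 ± 0.15. PRDM1, the repressor that fixes plasma cell fate, was at -1.18 ± 0.13, IRF4, on which myeloma cells depend, at -0.93 ± 0.14, the adhesion receptor CD44 at -1.48 ± 0.12, and the caveolar protein CAV1 at -2.66 ± 0.28. IRF4 had 13626 and 13463 with shRNA2, 20237 and 21844 with its scramble, 22362 and 18232 with shRNA1, and 17109 and 15719 with its scramble. Its shRNA2 libraries were lowest of the 4 groups. IGHE, an epsilon heavy chain gene, was at 2.76 ± 0.29. MYC, a driver of growth, was at -0.47 ± 0.16 (adjusted p = 0.027) and did not pass without either shRNA2 library, without shRNA1 replicate 1 or without replicate 2 of either scramble (values from -0.50 to -0.33, adjusted p from 0.0601 to 0.139). Of 19 B cell and germinal centre genes, 1 was higher and 7 lower in the difference of effects. In the direct difference 1 was higher and 14 lower, and in the scramble difference 2 were higher and 8 lower.

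In the secretory pathway, 24 of 35 genes of the unfolded protein response and ER chaperones were lower and 5 higher (3 without shRNA2 replicate 1) in the difference of effects (median -0.54), and 21 lower and 6 higher in the direct difference. With shRNA2, 22 fell and 1 rose, and with shRNA1, 10 fell and 13 rose. CALR, a calcium-binding chaperone, was at -1.87 ± 0.13, SEC24D, a cargo adaptor of COPII vesicles, at -1.78 ± 0.12, EIF2AK3, the sensor kinase PERK, at -1.34 ± 0.12, and EDEM3, which trims glycans of misfolded proteins, at -1.25 ± 0.11. CALR had 10648 and 9916 with shRNA2, 21891 and 22815 with its scramble, 27508 and 28084 with shRNA1, and 17699 and 15431 with its scramble. Of 34 ATF4 targets, amino acid transporters and tRNA synthetases, 17 were higher and 5 lower in the difference of effects (8 lower without replicate 1 of the scramble for shRNA1), and 24 higher and 4 lower in the direct difference. CHAC1, a glutathione-degrading enzyme, was at 2.18 ± 0.21, CTH, of cysteine synthesis, at 1.80 ± 0.24, and the glutamine transporter SLC38A2 at -2.10 ± 0.15. In the scramble difference, 23 of the 34 genes were higher and 0 lower.

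Among genes of survival and arrest, 9 of 16 BCL2 family members were lower and 1 higher in the difference of effects (median -0.77), and 13 lower and 1 higher in the direct difference. The pro-apoptotic BIK (-2.23) and HRK (-1.29) and the anti-apoptotic BCL2 (-1.15) were lower, and BAD (1.61), a sensitiser, was the member that was higher. Of 18 quiescence and FOXO genes, 12 were lower and 3 higher in the difference of effects (median -1.12). In the direct difference 15 were lower and 1 higher, although 10 rose with shRNA2 and 16 with shRNA1. The scramble difference was lower for 15 and higher for 0. TXNIP, an inhibitor of thioredoxin and glucose uptake, had 4166 and 4115 with shRNA2, 5390.2 and 4329 with its scramble, 31966 and 45147 with shRNA1, and 11648 and 13127 with its scramble. Its shRNA1 libraries were highest, and its difference of effects was -1.84 ± 0.19 (limma adjusted p = 1.6e-06). PIK3IP1, a negative regulator of PI3 kinase, was at -1.57 ± 0.16, and CDKN1C, a CDK inhibitor, at -2.26 ± 0.36. Of 29 G1 cyclins, CDKs, inhibitors and RB family genes, 6 were higher (3 without either shRNA2 library) and 13 lower in the difference of effects. Of 29 p53 targets, 10 were higher and 8 lower, against 20.0% and 21.9% of all genes.

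For the partners of ZBP1, RIPK3 had 0 reads in each of the 8 H929 libraries, which allows at most 3 reads in each (0.188 CPM in the shallowest), whereas MM1.S libraries had 147 and 170 reads with shRNA2, 147 and 136 with shRNA1, and 84 and 109 with the scramble. Of the 19 genes of the ZBP1 and necroptosis list that were tested, 2 were higher and 7 lower in the difference of effects, and 4 higher and 9 lower in the direct difference. The higher counts were 1 and 2 without shRNA2 replicate 1, and 0 and 1 without shRNA2 replicate 2. MLKL, the executor of necroptosis, had 458 and 483 with shRNA2, 512 and 486 with its scramble, 331 and 379 with shRNA1, and 535 and 560.2 with its scramble. Its difference of effects was 0.54 ± 0.15 (limma adjusted p = 0.0099), and 0.51 without shRNA2 replicate 2 (adjusted p = 0.0563). ADAR was at 0.41 ± 0.12 (adjusted p = 0.013), and did not pass without shRNA2 replicate 1 (0.39, adjusted p = 0.0789) or without shRNA2 replicate 2 (0.43, adjusted p = 0.0567). BIRC3, a ubiquitin ligase induced by NF-kB, was at -2.35 ± 0.23.

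In nucleic acid sensing, 6 of 23 genes were higher (3 without shRNA2 replicate 2) and 4 lower in the difference of effects, and 7 higher and 9 lower in the direct difference. Over all genes the shares were 20.0% and 21.9% in the difference of effects, and 30.2% and 29.7% in the direct difference. IFIH1, the RNA sensor MDA5, was at 1.64 ± 0.14 and TMEM173, the adaptor STING, at -1.61 ± 0.16. The difference of effects did not pass for the kinase TBK1 (0.29 ± 0.16, adjusted p = 0.14) or for the transcription factor IRF3 (-0.04 ± 0.13, adjusted p = 0.82). Of 25 NF-kB genes, 2 were higher and 10 lower in the difference of effects, and 3 higher and 16 lower in the direct difference. In the scramble difference 2 were higher and 12 lower. Among 17 genes of small RNA and RNA interference, which process a hairpin, 3 were higher (1 without shRNA2 replicate 2) and 5 lower in the difference of effects. Here too the shares over all genes were 20.0% and 21.9%. DICER1, which cuts the hairpin loop, was at -1.22 ± 0.13 and the silencing scaffold TNRC6C at -1.29 ± 0.15.

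In lipid metabolism, 3 of 14 cholesterol export and LXR target genes were higher and 8 lower in the difference of effects (median -0.69), and 2 higher and 11 lower in the direct difference. ABCA1, the cholesterol exporter, had 179 and 134 with shRNA2, 406 and 285 with its scramble, 1702 and 1708 with shRNA1, and 514 and 572 with its scramble. Both shRNA1 libraries were above all others, and the difference of effects was -2.78 ± 0.22 (limma adjusted p = 1.2e-07). SREBF1, a regulator of lipid synthesis, was at -2.64 ± 0.17. Of 33 lysosome and autophagy genes, 11 were higher and 9 lower in the difference of effects, against 20.0% and 21.9% of all genes. Against the same shares, 8 of 31 glycolysis and hypoxia genes were higher and 10 lower, and of 24 cholesterol synthesis genes 8 were higher and 8 lower. These last counts were small, and without shRNA2 replicate 2, for example, they were 5 and 6 for glycolysis and hypoxia, with 4 lower for cholesterol synthesis.

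Transcript length ran along with the difference of effects. Protein-coding genes with a mean normalised count of at least 100 were sorted into 5 equal groups by the longest annotated transcript. From the shortest to the longest group, the median difference of effects was 0.27, 0.12, -0.01, -0.11 and -0.29. The shRNA2 effect had medians of -0.10, -0.10, -0.09, -0.12 and -0.07, whereas those of the shRNA1 effect were -0.35, -0.20, -0.09, 0.03 and 0.24. Without the ribosomal protein and respiratory chain lists, the difference of effects still had medians of 0.25 in the shortest and -0.29 in the longest group. The direct difference in MM1.S had 0.30 in the shortest and -0.11 in the longest. Ribosomal and respiratory genes are mostly short and AHNAK is long; the part of length in their values was not tested.

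**Figure D4:**
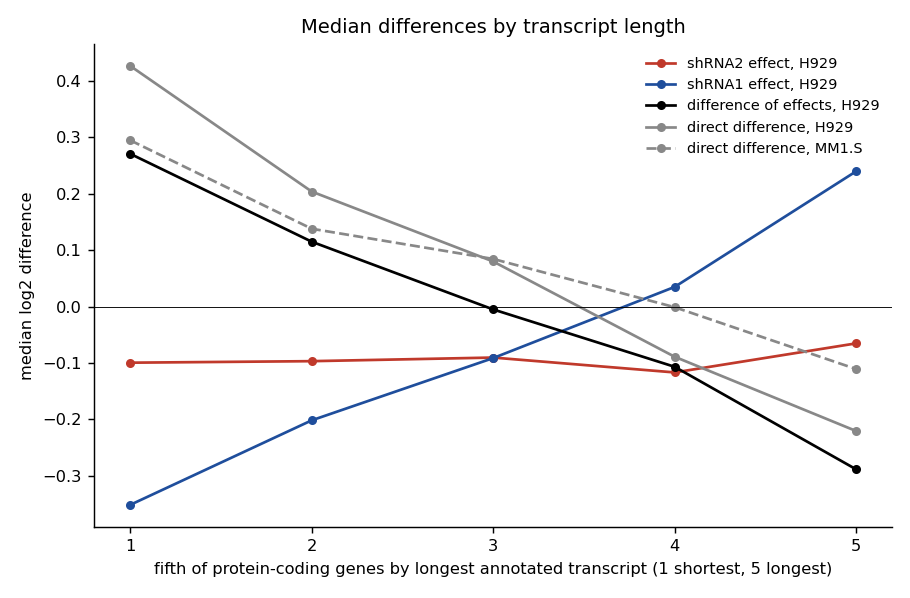
Median log2 difference on the y axis in 5 equal groups of protein-coding genes by longest annotated transcript on the x axis, from short to long, for the shRNA2 effect, the shRNA1 effect, the difference of effects and the direct difference in H929, and the direct difference in MM1.S. The line for the shRNA2 effect stays between -0.12 and -0.07, and that for the shRNA1 effect climbs, with medians of -0.35 at the short end and 0.24 at the long end.

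The same hairpins were compared in MM1.S, another myeloma line, where both share 1 scramble group and the direct difference equals the difference of effects. Of 17820 genes tested by edgeR, 2915 were higher (16.4%) and 3644 lower (20.4%) with shRNA2 than with shRNA1, and 5113 and 5267 with the replicate number as a block. The higher count was 1615 without shRNA2 replicate 1, 1377 without shRNA2 replicate 2 and 1685 without shRNA1 replicate 1, and the lower count was 2342 and 2426 without the first 2 of these. No library is shared between the lines. Over 15761 genes tested in both, 2100 were higher in both direct differences, which is 41.1% of the H929 genes and 74.3% of the MM1.S genes, and 2215 were lower in both, 48.0% and 70.6%. Another 210 were higher in H929 and lower in MM1.S, and 141 the reverse. Pearson's r across these genes was 0.597 for the direct difference and 0.559 for the difference of effects, as a description.

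The genes that led in H929 split in MM1.S, in the fit without the replicate block. The replicate numbers do pair these libraries, and over all genes more passed with the block. Calls with the block are not given for the genes and lists below, so those that did not pass may pass with it. RPS16 had 933 and 1062 CPM with shRNA2, 265 and 317 CPM with shRNA1, and 844 and 1009 CPM with the scramble in MM1.S and passed at 1.79 ± 0.16 (edgeR adjusted p = 0.00023). RPS3A (1.88) and EIF3L (2.25) passed as well, as did 26 of 59 ribosomal protein genes and 42 of 55 respiratory chain genes, with 0 lower in either list. FOS had 0.175 and 0.482 CPM with shRNA2, 33.7 and 42.4 CPM with shRNA1, and 21.1 and 20.2 CPM with the scramble in MM1.S, where shRNA2 was far below the other groups, and its direct difference was -6.79 ± 0.33 (adjusted p = 4.7e-05). Of 26 immediate early genes 18 were lower and 0 higher, and COL1A1 (-5.28) and AHNAK (-3.59) were lower too. The interferon genes IFI44L (0.13 ± 0.36, adjusted p = 0.81), IFI44 (0.26 ± 0.23, adjusted p = 0.41) and IFI27 (-0.38 ± 0.46, adjusted p = 0.55) did not pass in MM1.S, and of 41 in the list 6 were higher and 8 lower. DDX60 passed at 2.44 ± 0.24. Of 66 mitotic genes, 2 were higher and 16 lower in MM1.S (median -0.20). Over all genes tested in MM1.S, 16.4% were higher and 20.4% lower, the shares against which both the interferon and the mitotic counts are to be read. The difference between the lines was not tested.

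**Figure D5:**
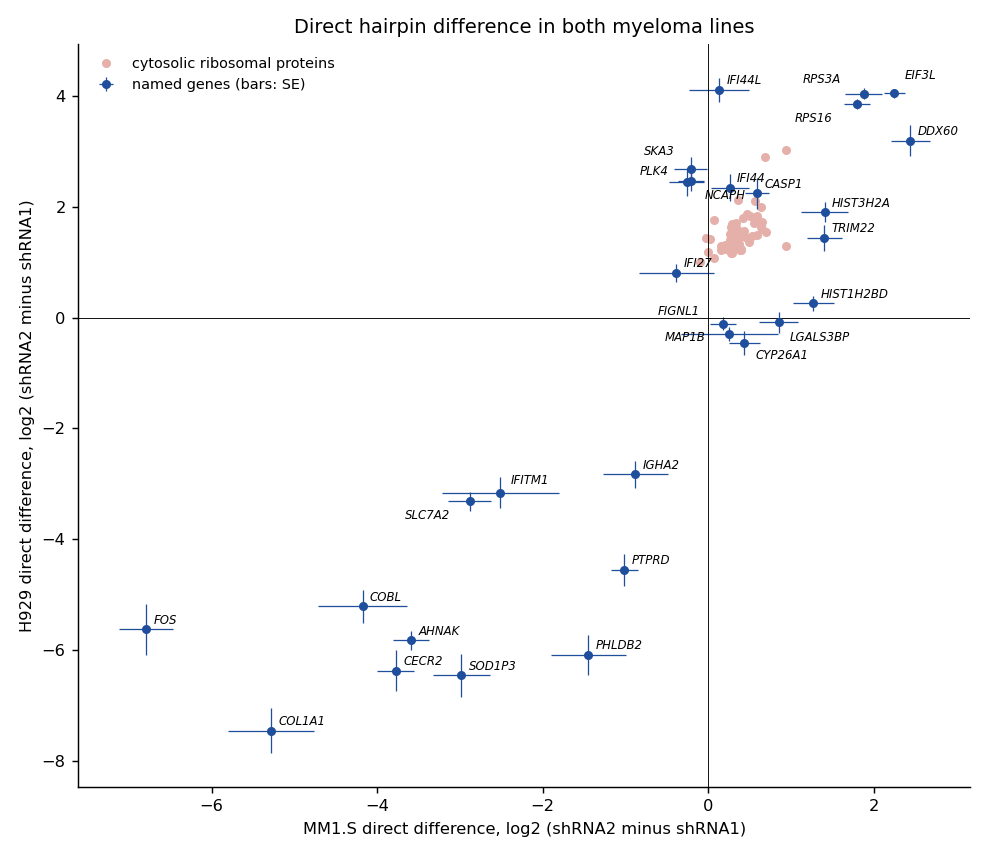
Direct difference, shRNA2 minus shRNA1 in log2, in H929 on the y axis and in MM1.S on the x axis, for genes named for their size with SE bars and for ribosomal protein genes. FOS, COL1A1 and AHNAK are below 0 in both lines, RPS16 and EIF3L above 0 in both, and IFI44L is at 4.11 in H929 and 0.13 in MM1.S.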

How the data were processed

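Poly(A) RNA was sequenced from 8 H929 and 6 MM1.S libraries, 2 per group. Per the submitters' processing notes, STAR 2.5.3a, DESeq2 1.24.0 and GRCh38 (hg38) were used; the counting tool, the annotation and strandedness are not given in the sources used here. The deposited H929 table holds a normalised signal, which is gene counts after division by a size factor for each library by the authors: multiplied back, 100% of the values above 0 were whole reads within 0.01. The deposited MM1.S values are whole numbers and were taken as raw counts, although the column headers do not state the measure. The authors' deposited comparison tables give log2 fold changes and p-values per gene, and were used only as a check of which column is which. Column names left shRNA2 and scramble for shRNA1 replicate 2 to be assigned by elimination; over 6213 genes, the median absolute log2 difference from the authors' tables was 0.0119 and 0.00429 with this assignment, and 0.237 to 0.498 with other pairings.

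Of 58069 rows, 18 repeated identifiers were left out. Genes reaching 10 in 2 or more H929 libraries (18213) were tested on log2(value + 1) with limma 3.58.1 (trended variance, 4 group means over 8 libraries, R 4.3.3), Benjamini-Hochberg adjusted p under 0.05. Fold changes are on this scale and understate those of low genes. The 17820 MM1.S genes kept by filterByExpr were tested with edgeR 4.0.16 (quasi-likelihood, TMM). The edgeR count test on the recovered H929 reads called 3634 genes higher and 3948 lower in the difference of effects. DESeq2 1.42.0, TMM scaling, a pseudocount of 5, no filter, a replicate block and each library left out were further alternatives. The code was tested on simulated data. Same-numbered MM1.S libraries deviated together (correlations 0.578 to 0.783), so the block is given there. Those of H929 did so weakly or not at all (-0.176 to 0.207). The correlation was 0.207 for shRNA1 with its scramble and 0.085 for shRNA2 with its scramble. A block shared by all 4 groups cannot show pairing within each hairpin and its control.

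Genes were named by rule: ZBP1 and its partners, IRF4 and MYC; the 10 highest and 10 lowest differences of effects among genes with a mean value of at least 100 that passed with the same sign in both comparisons; the 5 highest and 5 lowest whose effects passed with opposite signs; the 3 highest and 3 lowest that passed in 1 comparison alone; and up to 4 members per list with the largest passing difference of effects. Members and lists were chosen with earlier results of these data known. Of 157 named genes, 56 overlap exons of another gene, and for 43 that gene lies on the other strand. Intervals and limits from 0 reads cover counting error only. Some named genes are not reported here.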

Additional observations from a re-analysis of the deposited data

How the results depend on the processing

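Over all genes, the counts of the difference of effects and of the direct difference stayed within 1.5 times under every alternative that was run: the difference of effects had 2894 higher and 3307 lower with DESeq2, and 2844 and 3304 with no filter. With a replicate block it had 3639 higher and 3985 lower in H929, where same-numbered libraries deviated together weakly or not at all. NCAPH then passed in the difference of effects at 0.66 (limma adjusted p = 0.0378). With this block CYP26A1 and MAP1B passed in the direct difference at -0.46 and -0.30 (adjusted p = 0.0148 and 0.0169). In MM1.S, where the numbers do pair the libraries, the direct difference had 5113 higher and 5267 lower with the block. Leaving out 1 library at a time gave 1861 to 3532 genes for the higher shRNA2 effect, 1897 to 3391 for the higher and 1270 to 2626 for the lower scramble difference, and 1377 to 3172 for the higher and 2342 to 3856 for the lower direct difference in MM1.S. With no filter, the lower scramble difference had 1569. Of the named genes, none of the sign changes concerned a value that had passed. With 1 library left out at a time, the difference of effects was -0.14 to 0.050 for IRF3, -0.57 to 1.06 for MT2A and -0.11 to 0.72 for IGHA2, and the direct difference was -0.22 to 0.044 for LGALS3BP. Among all values of named genes under the alternatives, 2710 kept sign and side of the threshold, 60 no longer passed and 19 newly passed. The causes were not tested. With 2 libraries per group, a lone library left in a group is assumed to vary like the others, and differences in genes of few reads are not detectable at this depth.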
